A study of Mus musculus with 10 samples.

Results

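The genes described are 8 chemokine ligands, Ccl3, Ccl4, Ccl6, Cxcl10, Cxcl12, Cxcl14, Cxcl16 and Cx3cl1, taken by symbol from a hippocampal count table of 20156 genes, in which all 8 were found. The table holds 10 libraries from mice aged 6 months, 1 per mouse. They comprise 5 libraries of the genotype Wild Type (WT) and 5 of the genotype Tfam AKO (TfamAKO). Tfam encodes the protein that packages mitochondrial DNA, and the series title names astrocytic mitochondria. The labels do not give the promoter or Cre driver, the deleted part of Tfam, the strain, sex or litter, or any agent given to the animals.

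Chemokines are small secreted proteins, named for the spacing of their first cysteines, that steer immune cells through G-protein-coupled receptors. Cx3cl1 (fractalkine) and Cxcl16 are unusual in being made as membrane-anchored stalks that proteases shed. In the brain, Cx3cl1 comes mainly from neurons and acts on Cx3cr1 of microglia, Cxcl12 guides migrating cells through Cxcr4, and Ccl3, Ccl4 and Cxcl10 are known as inducible inflammatory signals.

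Of the 8 ligands, Ccl6, Cxcl16 and Ccl3 rose in TfamAKO, and Cx3cl1, Cxcl14 and Cxcl12 fell. The Ccl3 call was the least stable of the 6 and ended in 9 of 22 alternative analyses. Ccl6 rose 2.59-fold and Cxcl16 2.68-fold, whereas Cx3cl1, the most abundant of the 8, fell 1.38-fold. The 3 that rose were at low levels and the 3 that fell were the most abundant, while Cxcl10 and Ccl4 did not pass the test. Among 7 ligands tested, 3 were higher and 3 lower at an adjusted p under 0.05 by the quasi-likelihood test of edgeR. Over all 16180 genes tested, 37.4% passed in either direction, 20.8% higher and 16.6% lower. The median log2 fold change was -0.02 over all genes and 1.14 over the 7 ligands. With 3 higher and 3 lower, the latter is the value of Cxcl10 alone and gives no direction for the set. Ccl4 was below the count filter. Ccl3 reached 10 counts in 4 TfamAKO libraries and 1 WT library, so it passed the filter mainly through the group in which it was high.

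The stretch just before the transcription start was available from RefSeq (build GRCm38.p6) for 6 of the 8 genes. It was searched on both strands for 4 short motifs of inflammatory transcription factors. Shown are the 250 bases before the start of Cxcl10, the only one of the 6 with an NF-kB match, of Cxcl14, the other one with any match, and of Ccl6 and Cx3cl1, a ligand that rose and one that fell. They lie at chr5:92348890-92349139 (minus strand), chr13:56296552-56296801 (minus strand), chr11:83593088-83593337 (minus strand) and chr8:94771930-94772179 (plus strand). Capitals mark the matches to any of the 4 motifs, and sequences run 5′ to 3′.
Cxcl10: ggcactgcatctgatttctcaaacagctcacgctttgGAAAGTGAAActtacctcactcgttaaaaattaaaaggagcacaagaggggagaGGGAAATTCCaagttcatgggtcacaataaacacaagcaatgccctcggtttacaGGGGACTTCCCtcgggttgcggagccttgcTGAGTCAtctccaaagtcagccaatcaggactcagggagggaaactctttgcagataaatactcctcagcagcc
Cxcl14: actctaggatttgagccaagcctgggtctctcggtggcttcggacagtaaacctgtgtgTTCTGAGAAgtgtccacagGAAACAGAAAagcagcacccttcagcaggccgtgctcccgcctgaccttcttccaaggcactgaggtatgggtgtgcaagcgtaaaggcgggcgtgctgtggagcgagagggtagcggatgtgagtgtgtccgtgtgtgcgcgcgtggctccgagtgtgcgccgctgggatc
Ccl6: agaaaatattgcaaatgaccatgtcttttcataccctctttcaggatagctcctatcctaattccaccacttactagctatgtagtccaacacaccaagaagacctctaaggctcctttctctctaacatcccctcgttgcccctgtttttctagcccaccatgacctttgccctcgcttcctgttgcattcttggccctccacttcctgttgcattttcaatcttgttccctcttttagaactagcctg
Cx3cl1: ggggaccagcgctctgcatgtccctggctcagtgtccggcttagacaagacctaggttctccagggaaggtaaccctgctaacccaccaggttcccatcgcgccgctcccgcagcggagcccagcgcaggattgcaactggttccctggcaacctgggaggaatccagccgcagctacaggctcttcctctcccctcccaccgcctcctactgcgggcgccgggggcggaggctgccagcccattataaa

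The Cxcl10 window held 3 NF-kB matches, of which those at 104 to 95 and 103 to 94 bases before the start overlap and the other lies at 159 to 150. It also held 1 match to the core of the interferon-stimulated response element (GAAA, any 2 bases, GAAA), at 213 to 204 bases, and 1 AP-1 match (TGANTCA), at 74 to 68 bases. The Cxcl14 window held 1 interferon-element match and 1 match to the STAT motif GAS (TTCNNNGAA). No match to the 4 motifs was found in the windows of Ccl3, Ccl6, Cxcl12 or Cx3cl1. Of 32851 promoter windows of the same length, 7.25% held an NF-kB match, 2.98% the interferon-element core, 6.75% AP-1 and 7.02% GAS. The GC content of the windows was 45.2% for Ccl6, 46.8% for Ccl3 and 48% for Cxcl10, which had higher means in TfamAKO. Of these, Cxcl10 did not pass the test, and Cxcl16 and Ccl4, which also had higher means, had no window. The GC content was 59.6% for Cxcl14, 64.4% for Cxcl12 and 64.8% for Cx3cl1, the ligands that fell, against a median of 52.4% over all windows. A match describes letters in this window and is not evidence of a site in use.

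Levels are given as CPM, counts scaled to a library of 1000000, and total counts ran from 16584245 to 28675367 per library. Tfam itself spanned 20.6 to 33.0 CPM in WT and 19.6 to 23.6 CPM in TfamAKO (log2 fold change -0.40 ± 0.12 (SE), edgeR adjusted p = 0.0204), and WT 3 lay within the TfamAKO range. Leaving out WT 2, WT 4 or TfamAKO 3 ended that call, as did the authors' normalized values (limma adjusted p = 0.117). The choroid plexus transcript Ttr was between 2511 and 5146 CPM in WT 3, 4 and 5, against at most 122 CPM in the other libraries. A Y-linked gene, Kdm5d, reached 22.7 CPM in TfamAKO 4 and 22.4 CPM in TfamAKO 5 but less than 1 CPM in the remaining libraries. By this gene, sex was unevenly spread over the genotypes, and the model held genotype only. The dentate granule cell marker Prox1 (34.6 to 92.7 CPM) and the neuronal gene Snap25 (1374 to 2094 CPM) were present in all libraries.

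Per kilobase of the longest protein-coding transcript, the WT levels of the 8 ligands spanned from 0.165 CPM per kb for Ccl4 to 178 CPM per kb for Cx3cl1. Cx3cl1 (178 ± 3.11, SD, n = 5) was followed by Cxcl14 (63.6 ± 5.54), Cxcl12 (10.4 ± 0.959) and Ccl6 (1.09 ± 0.128), all in CPM per kb, and the WT ranges of these 4 did not touch. Below them, Cxcl16 (0.518 ± 0.216), Cxcl10 (0.495 ± 0.383) and Ccl3 (0.353 ± 0.314) had overlapping WT ranges, and Ccl4 (0.165 ± 0.0494) overlapped Cxcl10 and Ccl3. Cxcl10 also reached into the range of Ccl6. In TfamAKO the order was the same except that Ccl3 (1.10 ± 0.594 CPM per kb) and Cxcl10 (1.07 ± 0.336) changed places, with overlapping ranges. Cxcl12 has protein-coding transcripts of different lengths, so its level per length depends on the transcript chosen.

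**Figure D1:**
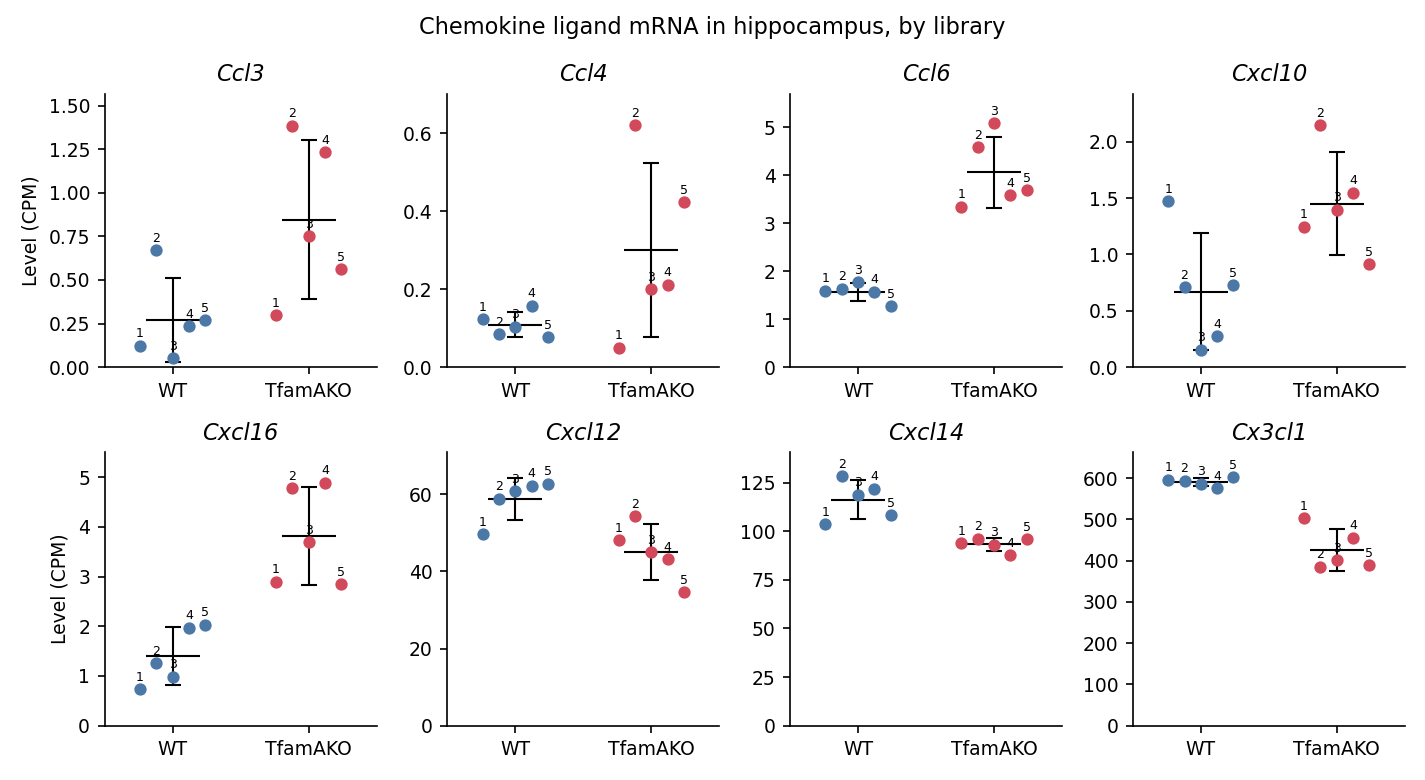
Level of each ligand in CPM (vertical axes start at 0 and differ between panels) in 5 WT and 5 TfamAKO libraries, numbered by replicate, with the mean and SD as bars. Ccl6 and Cxcl16 are higher, and Cxcl14 and Cx3cl1 lower, in every TfamAKO library than in any WT library, and the groups overlap for the other 4.

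The 3 CC-type ligands of the set lie side by side on chromosome 11, in the RefSeq order Ccl5, Ccl9, Ccl6, Ccl3, Ccl4. Ccl6, a mouse macrophage chemokine that binds Ccr1, measured 1.60, 1.64, 1.77, 1.58 and 1.27 CPM in the WT libraries 1 to 5 and 3.35, 4.58, 5.09, 3.59 and 3.70 CPM in the TfamAKO libraries 1 to 5. Every TfamAKO library was above every WT library, and the lowest TfamAKO value was that of TfamAKO 1. The rise from 1.57 ± 0.185 to 4.06 ± 0.743 CPM (SD, n = 5 each) gave a log2 fold change of 1.37 ± 0.17 (SE, edgeR adjusted p = 0.000119). It passed in all 23 alternative analyses, with log2 fold changes from 1.28 to 1.51. Groups that do not overlap were found for 23.9% of all genes tested, with TfamAKO higher for 14.5%.

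Ccl3 (MIP-1 alpha), a ligand of Ccr1, was at 0.123, 0.671, 0.0520, 0.236 and 0.269 CPM in the WT libraries 1 to 5, which were 2, 16, 1, 6 and 7 counts. In TfamAKO 1 to 5 it was at 0.300, 1.38, 0.749, 1.23 and 0.564 CPM, which were 6, 29, 15, 35 and 16 counts. WT 2 lay above TfamAKO 1 and TfamAKO 5, so the groups overlapped. The log2 fold change was 1.57 ± 0.55 (SE, edgeR adjusted p = 0.0398). The call ended in 7 of the 10 analyses with 1 library left out, namely without WT 1, 3, 4 or 5 or TfamAKO 2, 3 or 4, where the edgeR adjusted p reached 0.103 and the log2 fold change stayed at or above 1.33. Without WT 2 the log2 fold change was 2.22 (edgeR adjusted p = 0.00973), and without WT 3, 4 and 5 it was 1.02 (edgeR adjusted p = 0.363).

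Ccl4 (MIP-1 beta), the neighbour of Ccl3 on the chromosome, had 12 counts over the WT libraries and 36 over TfamAKO, and counts of 13 and 12 in TfamAKO 2 and 5 made up most of the latter. Its level was 0.109 ± 0.0326 CPM in WT and 0.301 ± 0.223 CPM in TfamAKO (SD, n = 5 each), and TfamAKO 1, with 1 count, lay below all WT libraries. With no filter on low counts its log2 fold change was 1.43 ± 0.59 (SE, edgeR adjusted p = 0.0855), where 30.1% of 20156 genes passed in either direction. It passed once TfamAKO 1 was left out (edgeR adjusted p = 0.0222). A difference of this size was not resolved at this depth. Ccl9, between Ccl5 and Ccl6, had a log2 fold change of 0.34 ± 0.19 (SE, edgeR adjusted p = 0.162), and its sign turned in the authors' normalized values (-0.26) and with the authors' factors (-0.35).

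Cxcl10, an interferon-inducible ligand of Cxcr3, measured 1.48, 0.713, 0.156, 0.276 and 0.729 CPM in the WT libraries 1 to 5 and 1.25, 2.15, 1.40, 1.55 and 0.916 CPM in the TfamAKO libraries 1 to 5. WT 1 lay above 3 of the TfamAKO libraries, and the other 4 WT libraries lay below all of them. The log2 fold change of 1.14 ± 0.46 (SE) did not pass (edgeR adjusted p = 0.0677). Without WT 1 it was 1.59 and passed (edgeR adjusted p = 0.0147), and without WT 3, 4 and 5 it was 0.45 (edgeR adjusted p = 0.489). Without TfamAKO 5 it was 1.28 and also passed (edgeR adjusted p = 0.0495), so the call turned on single libraries of either group. It passed, at 1.14, by the DESeq2 Wald test (adjusted p = 0.0490) and, at 1.41, by limma-voom (adjusted p = 0.0302).

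Cxcl16, a membrane-anchored scavenger-type chemokine whose receptor is Cxcr6, measured 0.738, 1.26, 0.988, 1.97 and 2.03 CPM in the WT libraries 1 to 5 and 2.90, 4.78, 3.70, 4.89 and 2.85 CPM in the TfamAKO libraries 1 to 5. The groups did not overlap, and WT 4 and 5 were the WT libraries nearest to TfamAKO. The log2 fold change was 1.42 ± 0.29 (SE, edgeR adjusted p = 0.00245), and it passed in all 23 alternative analyses, at 1.28 to 1.92. In the authors' normalized values the groups did overlap, because WT 5 (63.3) lay above TfamAKO 1 (59.4) and TfamAKO 5 (58.5). For Cxcl16 the ratio of normalized value to count, set to the median ratio of its library, was 0.912 to 0.917 in WT 1 to 4 and 1.38 in WT 5, and 0.913 to 1.25 in TfamAKO. Over 13502 genes the span of that ratio across libraries had a median of 1.11-fold and a 95th percentile of 1.72-fold. The ratio spanned 1.51-fold for Cxcl16, 1.45-fold for Ccl6 and at most 1.16-fold for the other 6 ligands. What that factor stands for was not given in the sources used here.

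Cx3cl1, the fractalkine of neurons, was at 596, 593, 587, 575 and 603 CPM in the WT libraries 1 to 5, a coefficient of variation of 1.75%. In TfamAKO 1 to 5 it was at 503, 385, 401, 456 and 389 CPM, all below the lowest WT library, and TfamAKO 1 was nearest to WT. The fall from 591 ± 10.3 to 427 ± 51.1 CPM (SD, n = 5 each) gave a log2 fold change of -0.47 ± 0.07 (SE, edgeR adjusted p = 0.000557), and it passed in all 23 alternatives, at -0.54 to -0.43. Non-overlap with TfamAKO lower was found for 9.43% of all genes tested. Cx3cl1 made up 75.3% to 79.1% of the summed CPM of the 8 ligands in WT and 70.2% to 77.1% in TfamAKO.

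Cxcl14, a chemokine of some interneurons whose receptor is not settled, measured 103, 128, 119, 122 and 108 CPM in the WT libraries 1 to 5 and 93.7, 96.1, 93.0, 87.5 and 95.9 CPM in the TfamAKO libraries 1 to 5. The groups did not overlap. The log2 fold change was -0.32 ± 0.06 (SE, edgeR adjusted p = 0.00256), and it did not pass without WT 3, 4 and 5 (-0.29, edgeR adjusted p = 0.0820), which left 2 WT libraries. The spread of the TfamAKO libraries, a coefficient of variation of 3.72%, was the smallest of the 8 ligands in that group.

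Cxcl12 (SDF-1), the ligand of Cxcr4 and of the scavenging receptor Ackr3, measured 49.5, 58.8, 60.7, 62.2 and 62.7 CPM in the WT libraries 1 to 5 and 48.1, 54.3, 44.9, 43.1 and 34.6 CPM in the TfamAKO libraries 1 to 5. WT 1 lay below TfamAKO 2, and TfamAKO 5 was the lowest of all libraries. The log2 fold change was -0.39 ± 0.11 (SE, edgeR adjusted p = 0.0154). The call ended without WT 3, 4 and 5 (-0.25, edgeR adjusted p = 0.292) and without TfamAKO 4 and 5 (-0.26, edgeR adjusted p = 0.0610), and both sets of libraries also stood apart in Ttr or Kdm5d.

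**Figure D2:**
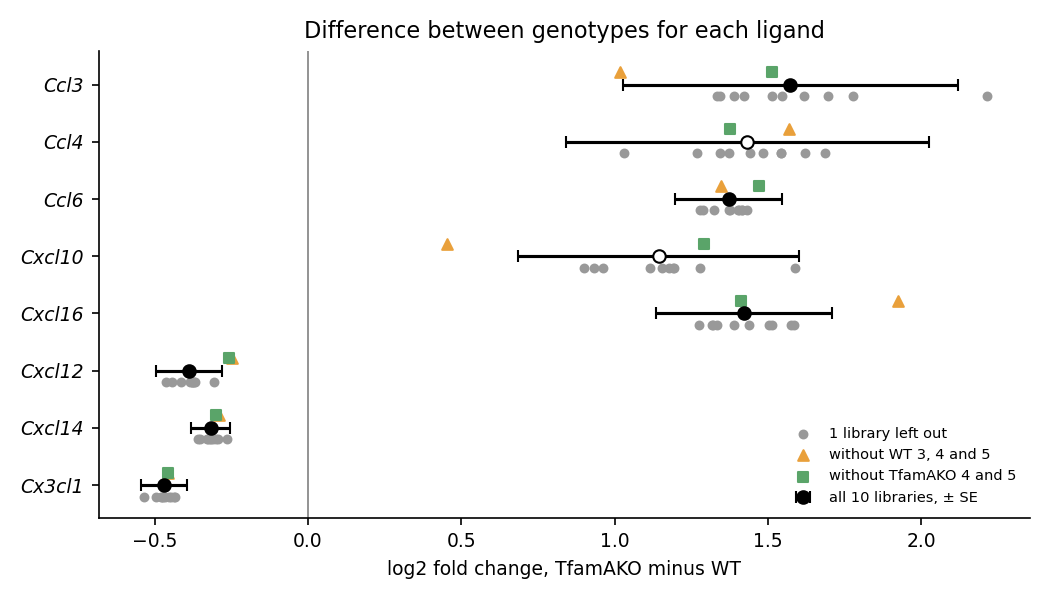
Log2 fold change (TfamAKO minus WT) of each ligand with all libraries (circles with SE bars, hollow for Cxcl10 and Ccl4, which did not pass), with 1 library left out (grey), without WT 3, 4 and 5 (triangles) and without TfamAKO 4 and 5 (squares). No analysis shown crosses 0, while Ccl3 (1.02 to 2.22) and Cxcl10 (0.45 to 1.59) range most widely.

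Receptors of the ligands rose or did not pass the test. Cx3cr1, the receptor of Cx3cl1 and a gene of microglia, measured 45.8, 53.6, 49.2, 50.5 and 45.7 CPM in the WT libraries 1 to 5 and 80.5, 101, 98.0, 97.7 and 94.4 CPM in the TfamAKO libraries 1 to 5. It rose (log2 fold change 0.94 ± 0.07 (SE), edgeR adjusted p = 3.32e-06) while its ligand fell, in libraries that did not overlap for either gene. Ccr1, a receptor of Ccl3 and Ccl6, was below the filter, with 28 counts over WT and 80 over TfamAKO.

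Cxcr4 measured 1.41, 1.89, 1.66, 2.21 and 2.49 CPM in the WT libraries 1 to 5 and 5.74, 2.29, 4.20, 3.34 and 2.18 CPM in the TfamAKO libraries 1 to 5. TfamAKO 1 and 3 were the highest, and WT 5 lay above TfamAKO 2 and 5. The log2 fold change of 0.86 ± 0.28 (SE, edgeR adjusted p = 0.0304) was lost without any 1 of 6 libraries (WT 1, 2 or 3, or TfamAKO 1, 3 or 4), where the adjusted p reached 0.0716. Ackr3 had a log2 fold change of -0.35 ± 0.17 (SE) and did not pass (edgeR adjusted p = 0.138). Without WT 3, 4 and 5 its value was 0.0030. Cxcr3 and Cxcr6 were not among the genes of the count table used here, and why was not given. Of the 3 receptors of the ligands reported here that were tested, 2 rose and 0 fell.

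**Figure D3:**
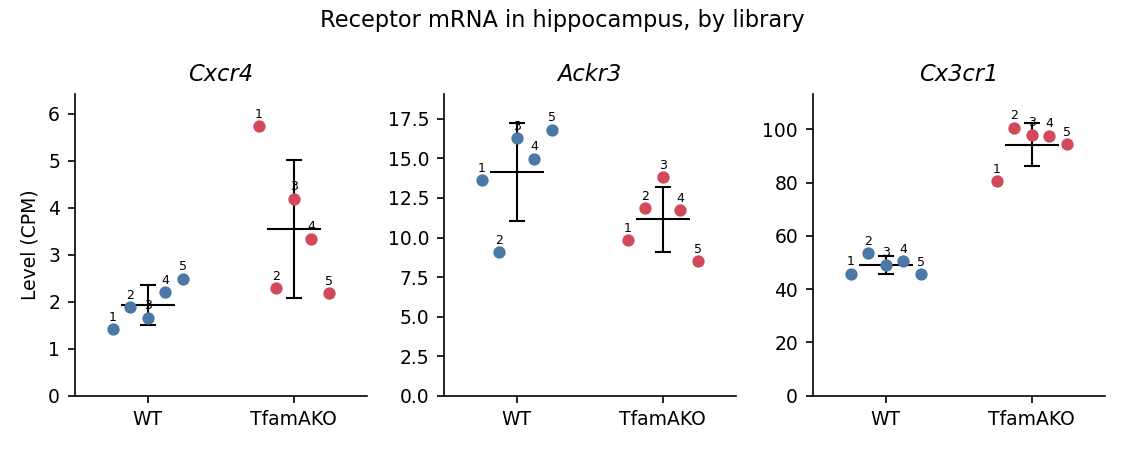
Level in CPM (axes start at 0) of 3 receptors of the ligands in 5 WT and 5 TfamAKO libraries, numbered by replicate, with the mean and SD as bars. The groups are apart for Cx3cr1 and overlap for Cxcr4 and Ackr3.

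Among the other chemokine ligands, 18 of 30 listed genes were in the count table and 6 passed the count filter. Of these 6, 1 rose and 0 fell, with a median log2 fold change of 0.26. The gene that rose was Ccl12 (MCP-5), a monocyte-attracting ligand of Ccr2. It went from 0.364 ± 0.0661 to 1.82 ± 0.714 CPM (SD, n = 5 each), at a log2 fold change of 2.32 ± 0.31 (SE, edgeR adjusted p = 0.000163). Its WT libraries, at most 0.434 CPM, lay under the filter cutoff of 0.437 CPM. Ccl12 thus passed the filter only through TfamAKO, the group in which it was high. Ccl27a did not pass (log2 fold change -0.25 ± 0.18 (SE), edgeR adjusted p = 0.284), except without TfamAKO 5 (-0.49, edgeR adjusted p = 0.000471), and close copies of this gene leave its level uncertain. The 12 ligands below the filter had 18 to 148 counts over all libraries, and 11 had more counts in TfamAKO. The like share over all genes below the filter was not computed. The other, Cxcl5, had 94 counts over WT and 36 over TfamAKO. With no filter, 16.9% of all 20156 genes passed upward, a share not limited to genes with so few counts. Of the 12 ligands, 6 passed upward and 0 downward. Chosen after their values were seen, these were Ccl2 (4 counts over WT and 53 over TfamAKO), Ccl5 (11 and 45), Ccl7 (3 and 31), Ccl8 (1 and 85), Ccl11 (2 and 20) and Ccl17 (22 and 126). Ccl5 was the 1 of the 12 whose groups did not overlap, at 0 to 0.192 CPM in WT and 0.317 to 0.499 CPM in TfamAKO. Ccl17 and Ccl22 flank Cx3cl1 on chromosome 8, and of these neighbours Ccl22, with 9 counts over WT and 21 over TfamAKO, did not pass (edgeR adjusted p = 0.404 with no filter).

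Of 4 other chemokine receptors tested, 1 rose and 0 fell (median log2 fold change 0.15). It was Ccrl2, a non-signalling receptor (log2 fold change 0.81 ± 0.26 (SE), edgeR adjusted p = 0.0311), whose call ended in 6 of 10 analyses with 1 library left out (edgeR adjusted p up to 0.0857). Below the filter were 4 more. With no filter, Ackr4, a scavenging receptor, passed downward, at a log2 fold change of -2.59 (edgeR adjusted p = 0.0388). It had 44 counts over WT and 7 over TfamAKO, and its groups overlapped. The other 3 did not pass, among them Ccr2, the receptor of Ccl12, with 28 counts over WT and 25 over TfamAKO. Ackr4 and Ccr2 were chosen after their values were seen.

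Of 6 enzymes that act on these ligands, 3 rose and 0 fell, with a median log2 fold change of 0.39. Adam17, a sheddase of Cx3cl1, rose (log2 fold change 0.57 ± 0.10 (SE), edgeR adjusted p = 0.000801), whereas Adam10, which sheds Cx3cl1 and Cxcl16 in unstimulated cells, was at 81.7 ± 8.83 CPM in WT and 86.5 ± 4.76 CPM in TfamAKO (SD, n = 5 each; edgeR adjusted p = 0.419). The matrix metalloproteases Mmp14 (log2 fold change 1.17 ± 0.18 (SE), edgeR adjusted p = 0.000380) and Mmp2 (1.06 ± 0.33, edgeR adjusted p = 0.0233) rose, and both gene products can truncate Cxcl12. The Mmp2 call ended in 4 of 10 analyses with 1 library left out (edgeR adjusted p up to 0.0648).

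Of signals known to induce chemokines, 7 of 10 tested rose and 0 fell, with a median log2 fold change of 0.64. Those with the smallest p were the NF-kB subunit gene Nfkb2 (log2 fold change 2.23 ± 0.15 (SE), edgeR adjusted p = 1.20e-06), the cytokine gene Il1a (2.02 ± 0.29, edgeR adjusted p = 0.000273), Rela (0.87 ± 0.13), Relb (0.87 ± 0.15), Nfkb1 (0.40 ± 0.10) and Irf1 (0.72 ± 0.19). Il1a had 48 counts over WT and 215 over TfamAKO, and WT 3, 4 and 5 lay under the filter cutoff of 0.437 CPM. It thus passed the filter mainly through TfamAKO, the group in which it was high. The Nfkb1 call ended in the authors' normalized values (limma adjusted p = 0.0911 at a pseudocount of 1) and with the authors' factors (edgeR adjusted p = 0.106). Of 2 genes below the filter, Tnf had 2 counts over WT and 48 over TfamAKO, and its groups did not overlap (edgeR adjusted p = 0.00105 with no filter). The other, Il1b, had 18 and 29 counts, its groups overlapped, and it did not pass (edgeR adjusted p = 0.533 with no filter).

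Marker genes of the cells that make or receive these ligands differed too, and their part in the ligand differences was not tested. In bulk tissue, fewer cells of a type and less RNA per cell cannot be told apart. Of 9 microglia markers, 7 rose and 0 fell, and their summed level was 290 to 346 CPM in WT and 449 to 548 CPM in TfamAKO. Of 8 neuron markers, 0 rose and 4 fell (6587 to 7172 CPM against 5031 to 6224 CPM), and of 8 markers of interneurons of the CGE type, 0 rose and 2 fell (451 to 516 CPM against 256 to 418 CPM). Of 8 endothelial markers, 5 rose and 0 fell (194 to 255 CPM against 275 to 433 CPM), and of 8 astrocyte markers, 4 rose and 2 fell (4110 to 5046 CPM against 4430 to 7002 CPM).

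Markers of cells from the blood or the brain borders were at low levels. Every gene in the count table had counts in some library, so a marker at 0 throughout could not appear. Of 10 T and NK cell markers listed, 4 were in that table, as were 3 of 6 neutrophil and monocyte markers. Why the others were absent was not given. Of 5 border macrophage markers tested, 2 rose and 0 fell (summed over 6 genes, 2.89 to 9.25 CPM in WT and 6.48 to 19.9 CPM in TfamAKO). T and NK cell markers summed to 1.35 to 1.69 CPM in WT and 1.65 to 2.65 CPM in TfamAKO over 4 genes, of which 1 was tested and did not pass. Neutrophil and monocyte markers summed to 0.461 to 0.884 CPM in WT and 0.350 to 2.29 CPM in TfamAKO over 3 genes, of which 1 was tested and rose. Of 5 fibroblast and meninges markers, 0 rose and 0 fell (32.0 to 111 CPM against 31.9 to 127 CPM). Of 8 choroid plexus markers, 0 rose and 8 fell (42.6 to 5652 CPM against 36.5 to 133 CPM), and the high values were those of WT 3, 4 and 5.

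Set against the mean log2 CPM of the marker genes in the same library, the ligands fell into different patterns. Relative to the 9 microglia markers, whose own mean was 0.53 higher in TfamAKO on the log2 scale, Ccl6 was still 0.79 higher and its groups did not overlap. On this scale Cxcl16 was 0.93, Ccl3 0.93, Cxcl10 0.74 and Ccl4 0.26 higher, with overlapping groups. Ccl4 had 2 to 4 counts in each WT library, so the prior count of 2 in log2 CPM shrinks its value. Its edgeR log2 fold change with no filter, not set against markers, was 1.43 ± 0.59 (SE). Relative to the 8 neuron markers, whose own mean was 0.37 lower in TfamAKO, Cx3cl1 differed by -0.10, Cxcl14 by 0.06 and Cxcl12 by -0.02, and all 3 had overlapping groups. The log2 difference of Cx3cl1 was -0.47 against all genes and -0.10 against the mean of the neuron markers. Singly, these 8 markers had log2 fold changes from -0.72 (Gad1) to -0.10 (Slc17a7), so the value against them depends on the markers chosen. Relative to 8 interneuron markers of the CGE type, Cxcl14 differed by 0.29, again with overlapping groups. Relative to 8 endothelial markers, Cxcl12 differed by -0.92 and Ccl6 by 0.79, and neither overlapped between groups. The same held there for Cx3cl1 (-1.01), Cxcl14 (-0.84) and Cxcl16 (0.93), while Ccl3, Ccl4 and Cxcl10 overlapped. Cx3cl1, Cxcl14 and Cxcl12 were also lower without overlap relative to the microglia and the astrocyte markers. Relative to 8 astrocyte markers, Ccl6 was 0.85 higher and its groups did overlap. These marker-relative values are descriptions without a test.

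**Figure D4:**
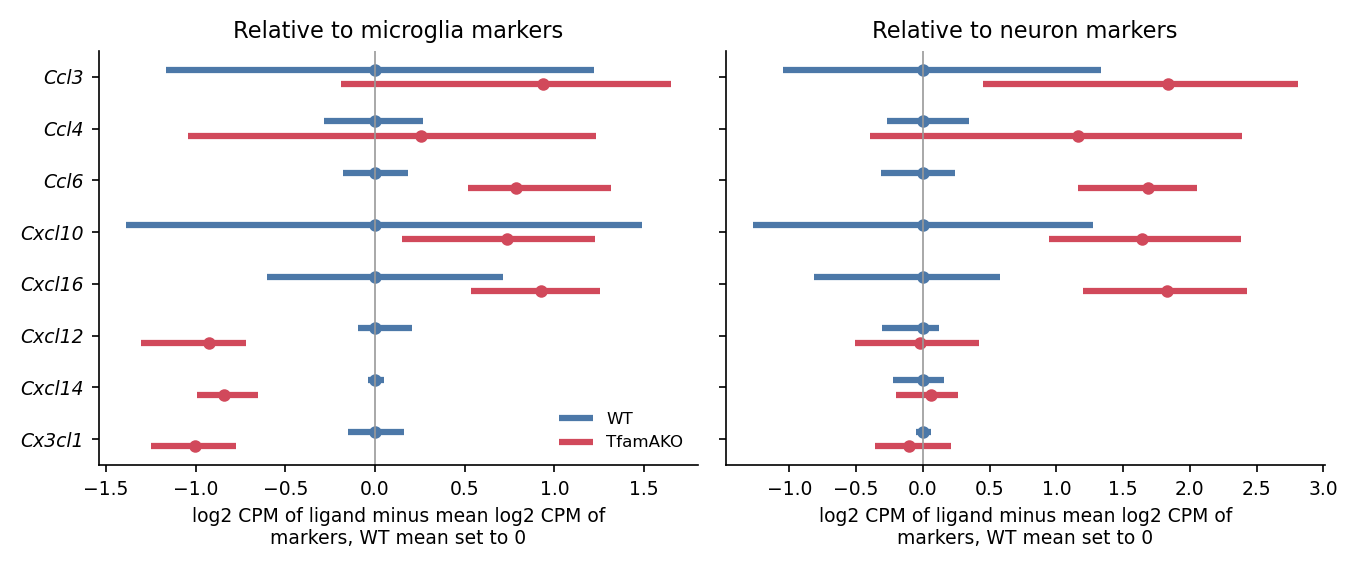
Log2 CPM of each ligand minus the mean log2 CPM of 9 microglia markers (left) or 8 neuron markers (right) in the same library, with the WT mean set to 0; bars span the lowest to the highest of 5 libraries and dots are means. On the left only Ccl6 lies wholly above WT, and on the right Cx3cl1, Cxcl14 and Cxcl12 overlap WT.

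The genes whose profile over the 10 libraries came closest to each ligand were found by the mean absolute difference of log2 CPM, each gene centred on its own mean. The comparison covered genes averaging at least 1 CPM, and the libraries share the genotype difference, so genes with a like fold change come close. For Ccl6 they were Cd68 (0.107), a lysosomal gene of macrophages and microglia, Plcd4 (0.115) and Lrrc75a (0.123), against a median of 0.674 over 14789 genes. For Cxcl16 they were Cp (0.145), which encodes ceruloplasmin, Adgre1 (0.152), which encodes the macrophage antigen F4/80, and Efemp1 (0.167). For Ccl3 they were Lpar2 (0.259), the immediate early gene Fos (0.318) and Plaur (0.332). For Cx3cl1 they were Jph1 (0.0377), the synaptic scaffold gene Dlg3 (0.0438) and Clvs2 (0.0440). Cxcl14 had Ubqln4 (0.0469), Ahcyl1 (0.0503) and Ilrun (0.0511), and Cxcl12 had Aldh7a1 (0.0647), Myh14 (0.0817) and Atf6b (0.0850). For Cxcl10 the nearest were UNKNOWN_ENSMUSG00000090996 (0.342), Rtl9 (0.377) and Nat8 (0.399), and for Ccl4 they were Gm3604 (0.305), Pcsk4 (0.307) and Prtn3 (0.313). The distances of these last ligands were the widest beside those of Ccl3, and these are also the ligands with the fewest counts.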

How the data were processed

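The authors deposited a table of unnormalized estimated counts, all whole numbers, and a table of normalized values, treated as a signal. Of tools, the submitters' processing notes list DESeq2 (version 1.26.0) and Salmon (no version). The genome build, the annotation and the way the deposited normalized signal was made were not given in the sources used here. Per the labels' protocols, total RNA was used with a stranded mRNA library kit.

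Counts were tested with edgeR 4.0.16 in R 4.3.3 (filterByExpr with a minimum count of 10, TMM factors, two-sided quasi-likelihood F test, genotype only) on the 16180 genes kept of 20156, with Benjamini-Hochberg adjustment over all of them and a threshold of 0.05. CPM are counts scaled to an effective library size of 1000000, and log2 CPM use a prior count of 2. The SE of a log2 fold change is its size over the root of F. Transcript lengths were those of GENCODE M21. Alternatives used DESeq2 1.42.0, limma 3.58.1, the deposited normalized values, other scalings and filters, and fewer libraries. The step was tested on simulated data, in which only genes averaging at least 1 CPM were changed. That test therefore does not cover changes at the levels of Ccl3 and Ccl4.

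The members, lists and alternatives were chosen with earlier results of these data known. The genes named are the members, Tfam, their receptors, up to 6 genes of smallest p per list, and the 3 nearest profiles per member; 1 receptor is not reported here. Total counts of 16584245 to 28675367 per library limit the precision of genes with few counts. Intervals and errors take reads without molecular identifiers as they come. Tests take the mice as replicates, and the labels give no litter or batch.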

Additional observations from a re-analysis of the deposited data

How the results depend on the processing

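Over 23 alternatives, Ccl6, Cxcl16 and Cx3cl1 kept their direction and their call in every one, Cxcl14 in 22 and Cxcl12 in 21. Ccl3 lost its call in 9 of the 22 in which it was tested, and Cxcl10 gained one in 7 of 23. With 1 library left out, 2 to 4 members were called higher, 3 (lowest and highest) lower, and 4828 to 7094 of all genes passed. Without WT 3, 4 and 5, which leaves 2 WT libraries, 1 member was called lower and 2752 genes passed in all, against 3 and 6048. Without those libraries the log2 fold change was 0.0030 for Ackr3 and -0.052 for UNKNOWN_ENSMUSG00000090996, both opposite in sign to the value with all libraries, and the cause was not tested. Ccl9, uncalled throughout, was at -0.26, -0.26 and -0.25 in the authors' normalized values with pseudocounts of 1, 0.5 and 5 and at -0.35 with the authors' factors as offsets, an alternative chosen after seeing the data. With the replicate block, 3 members were called higher, 3 lower, and 5679 genes passed. Deviations of same-numbered libraries correlated at -0.14 to 0.07, and 0 libraries correlated best with their own number. No pairing of the mice by number was thus seen, which does not exclude one. The block ended the calls of Cxcr4 (0.78, edgeR adjusted p = 0.0910) and Ccrl2 (0.80, edgeR adjusted p = 0.0641). Of 1147 values for the 50 genes named, 1027 kept direction and call, 103 lost a call, 11 gained one and 6 changed sign. Depth limits Ccl3, Ccl4 and Cxcl10, which had 12 to 70 counts over the WT libraries.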
